A study of Saccharomyces cerevisiae BY4741 with 6 samples.

Results

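The genes described here are the nuclear genes of budding yeast that encode proteins of the mitochondrial ribosome and carry one of its systematic gene names, MRPL, MRPS, RSM or MRP followed by a number. Of 5219 genes in the count table, 62 had such a name: 35 code for proteins of the large subunit and 27 for proteins of the small subunit. MRP8 was left out because its name matches but its product is not a ribosomal protein, and MRP35, MRPL10, MRPL3 and RSM23, which also carry such names, are not analysed here. The 62 genes lie on 14 chromosomes, and all 62 reached the mean count of 10 per library that was required for testing.

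The mitochondrial ribosome translates the few proteins still encoded by mitochondrial DNA, most of which are core subunits of the respiratory chain and the ATP synthase. Its ribosomal RNAs are made inside the organelle, but nearly all of its proteins are encoded in the nucleus, made in the cytosol and imported. Some of these proteins descend from bacterial ribosomal proteins, and others are found only in mitochondria. Yeast that ferments glucose represses respiration, and transfer to another carbon source relieves that repression, which makes this machinery of interest in a change from glucose to galactose.

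The assay was NET-seq, short for native elongating transcript sequencing. It purifies RNA polymerase II together with the RNA it is making and sequences that RNA, so that it reads transcription in progress. All strains were BY4741 with the RPB3-3xFLAG-His3MX6 allele, which tags the polymerase subunit Rpb3. The spp1::KanMX6 strain, called the SPP1 deletion below, lacks a subunit of COMPASS, the histone H3 lysine 4 methyltransferase complex, and was set against the wild type with the tag alone. Each strain was sampled in YPD, which contains 2% glucose, and at 15 and 60 min after transfer to YPG, which contains 2% galactose; per the labels the galactose cultures were spun down and resuspended, a step not described for the glucose cultures. There is 1 library for each strain and condition and no replicate of any group. A change with time was therefore tested as the change shared by the strains, and a strain difference as the difference shared by the conditions. Each p-value measures only the spread of these 6 libraries about those shared effects. The spread of each gene was estimated largely from all genes together (13.0 prior against 2 residual degrees of freedom).

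Total counts were 4167249, 1681514 and 1162190 in the SPP1 deletion in glucose and at 15 and 60 min, against 2528759, 1270361 and 1459874 in the wild type. SPP1 itself had 1, 0 and 0 counts in the deletion libraries, against 324, 69 and 131 in the wild type, as the labels say. The 62 genes held 0.867%, 1.16% and 1.25% of all counts in the deletion, against 0.916%, 1.22% and 1.26% in the wild type. The proteins of the cytosolic ribosome, whose 137 genes were followed for comparison, held 15.9%, 3.00% and 4.76% in the deletion, against 16.6%, 3.11% and 6.28% in the wild type. Levels below are given as CPM, counts scaled to a common library total with TMM factors, and they are shares of the RNA bound to polymerase, not amounts per cell. Of the 62 genes, 3 (MRP17, MRPL13 and MRPL20) lie on the right part of chromosome XI, where the median level of genes on the Watson strand minus that of genes on the Crick strand was -1.35 log2 units, against -0.03 elsewhere, and their values are uncertain. The spans of MRPL51, MRPL19 and MRP4 overlap another annotated gene, and whether reads were counted by strand is not stated, so their values are uncertain too.

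After 15 min in galactose, transcription of the mitochondrial ribosomal protein genes was modestly higher than in glucose. By the fit over all genes (edgeR quasi-likelihood test, Benjamini-Hochberg adjusted p under 0.05), 43 of the 62 genes rose, 3 fell and 16 did not pass the test. Over all 5186 genes tested, 37.1% rose and 38.1% fell, so the background is large and the members' share of risers has to be read against it. DESeq2 called fewer of the 62 genes, 29 up and 1 down. The median change of the 62 genes was 0.43 log2 units, a 1.35-fold increase, and the median over all genes tested was -0.01. Changes ran from -1.21 to 1.63 log2 units, and 4 genes moved at least 2-fold, 3 of them upwards. Of all 5186 genes tested, 1075 were called at least 2-fold up and 1269 at least 2-fold down. In 50 of the 62 genes the level was higher at 15 min in each strain taken alone, and in 6 it was lower in each. No such counts over all genes tested are given here.

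**Figure D1:**
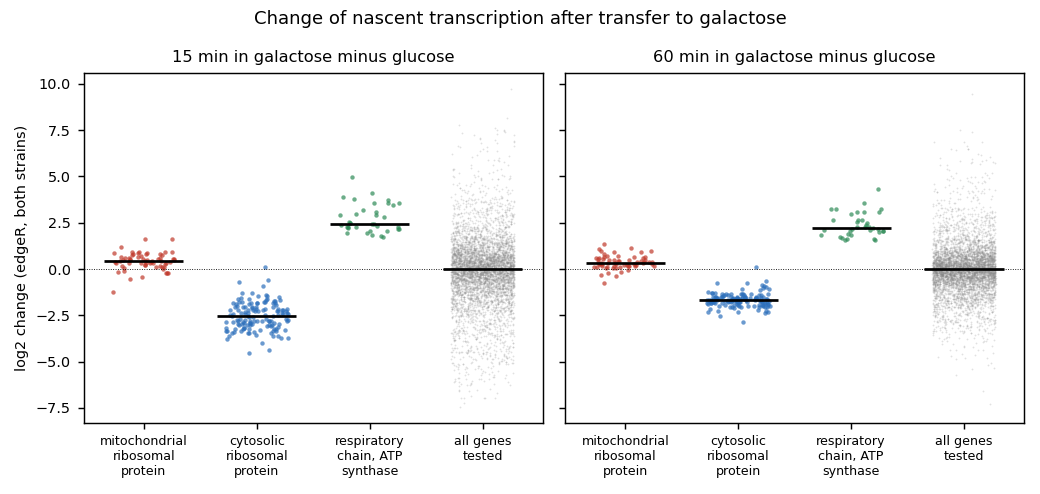
Log2 change against glucose at 15 min (left) and 60 min (right) for each gene (points) of 3 gene groups and of all genes tested, with the median of each group as a black bar. The 62 mitochondrial ribosomal protein genes sit slightly above 0 with medians of 0.43 and 0.35, between the cytosolic ribosomal protein genes below (-2.54 and -1.69) and the respiratory chain and ATP synthase genes above (2.45 and 2.24).

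The change of the 62 genes was small beside those of the cytosolic ribosomal protein genes and of the respiratory chain and ATP synthase genes. Of the 137 cytosolic ribosomal protein genes, 136 fell at 15 min with a median of -2.54 log2 units, whereas all 36 genes of the respiratory chain and ATP synthase rose with a median of 2.45. The largest increase among the 62 genes, 1.63 log2 units, lay below the smallest among the 36 respiratory genes, 1.72. Over the 6 libraries, the highest level of a mitochondrial ribosomal protein gene was a median of 1.52-fold its lowest, against 2.27-fold over all genes tested, 6.62-fold over cytosolic ribosomal protein genes and 6.37-fold over respiratory genes. The level stayed within 2-fold in 52 of the 62 genes (83.9%), against 42.1% of all genes tested. These groups were measured in the same libraries, and their differences from one another were not tested.

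The largest increases at 15 min belonged to RSM10 and MRP20. RSM10 (YDR041W, chromosome IV, 539803 to 540414 of R64) encodes uS10m, a small subunit protein with a bacterial counterpart. It had 116, 387 and 240.5 CPM in the SPP1 deletion in glucose and at 15 and 60 min, against 126, 364 and 275 CPM in the wild type. Both galactose levels lay above both glucose levels, and the highest were the libraries at 15 min. The change was 1.63 ± 0.13 log2 units at 15 min (approximate SE; edgeR adjusted p = 1.87e-08) and 1.09 ± 0.14 at 60 min (edgeR adjusted p = 3.7e-06). MRP20 (YDR405W, chromosome IV, 1277646 to 1278437) encodes uL23m, which sits at the exit of the tunnel through which the new protein leaves the large subunit. Its levels were 97.3, 298 and 249 CPM in the deletion, against 92.7, 284 and 231 CPM in the wild type. The 4 galactose libraries were all above the 2 glucose libraries, and the change at 15 min was 1.61 ± 0.13 log2 units (edgeR adjusted p = 9.78e-09).

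MRPS12 and RSM19, which lie in tandem 229 bp apart on chromosome XIV, rose as well. MRPS12 (YNR036C, 694361 to 694822) encodes uS12m of the decoding centre, where codon and anticodon meet. It had 271, 625 and 609 CPM in the deletion, against 270.4, 606 and 572 CPM in the wild type. Its glucose libraries did not overlap its galactose libraries, and it rose by 1.18 ± 0.16 log2 units at 15 min (edgeR adjusted p = 4.42e-06). RSM19 (YNR037C, 695052 to 695327), which encodes uS19m of the small subunit head, had 133, 239 and 224 CPM in the deletion and 118, 246 and 215 CPM in the wild type. All 4 of its galactose values exceeded both glucose values, and it rose by 0.94 ± 0.13 at 15 min (edgeR adjusted p = 5.57e-06). The next largest increases, between 0.89 and 0.93 log2 units, were those of MRPL51 (protein mL43), RSM28 (mS46), MRPL38 (uL14m) and MRP51 (bS1m).

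**Figure D2:**
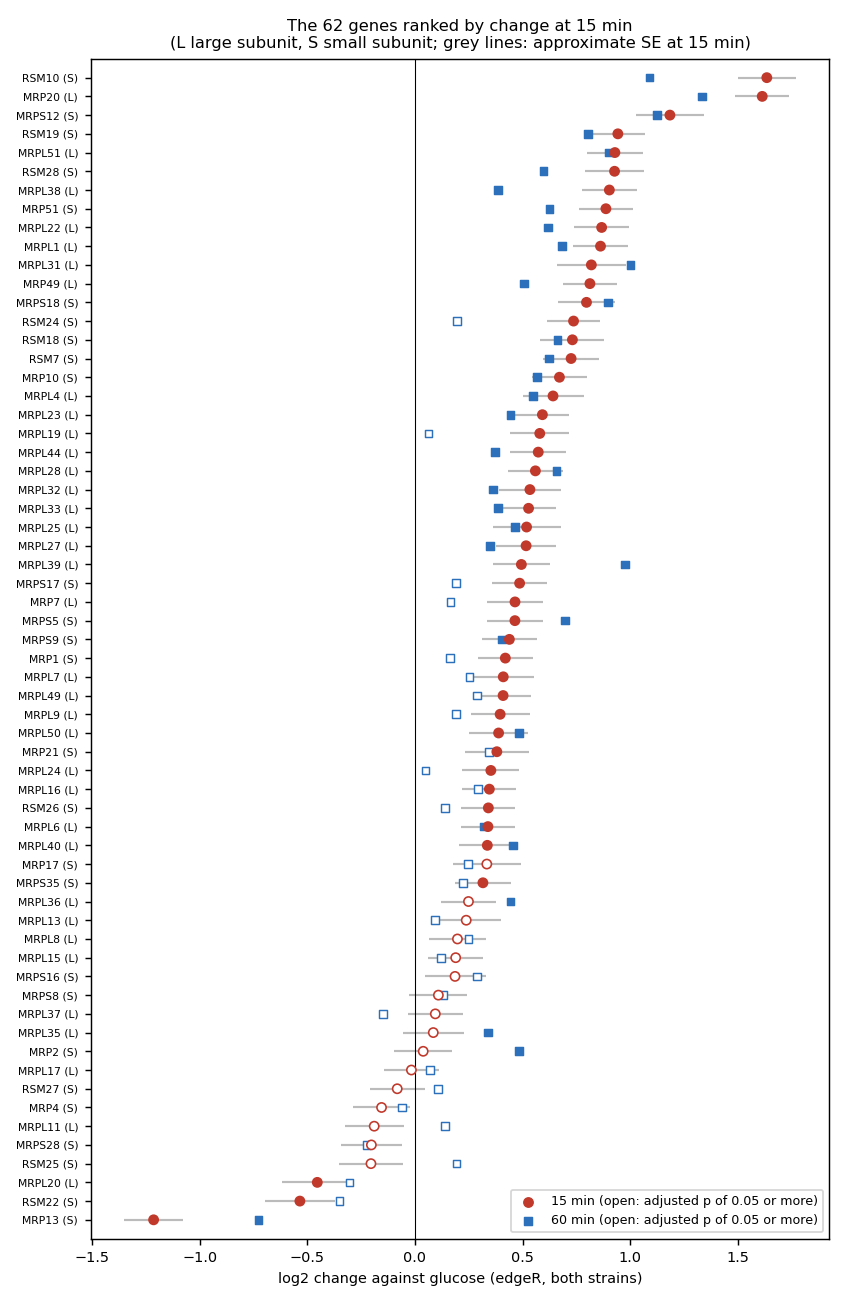
Log2 change against glucose for each of the 62 genes at 15 min (red circles, with the approximate SE as grey lines) and at 60 min (blue squares), ranked by the change at 15 min; open symbols have an edgeR adjusted p of 0.05 or more. RSM10 and MRP20 stand at the top with 1.63 and 1.61 at 15 min, and MRP13 stands apart at the bottom with -1.21.

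The 3 genes that fell at 15 min were MRP13, RSM22 and MRPL20. MRP13 (YGR084C, chromosome VII, 647123 to 648142) encodes mS44, a small subunit protein without a bacterial counterpart. It had 236, 112 and 158 CPM in the deletion, against 277, 107 and 151 CPM in the wild type. Both strains were lower at both galactose times than either was in glucose. The change was -1.21 ± 0.14 log2 units at 15 min (edgeR adjusted p = 6.97e-07) and -0.73 ± 0.13 at 60 min (edgeR adjusted p = 0.000147). RSM22, which encodes a methyltransferase-like protein associated with the small subunit, had 80.4, 50.6 and 59.9 CPM in the deletion and 87.3, 66.4 and 72.2 CPM in the wild type. Per kilobase of span its level was the lowest of the 62 genes in each library, and it changed by -0.53 ± 0.16 log2 units at 15 min (edgeR adjusted p = 0.00716). MRPL20, which encodes mL58 and lies on the uncertain part of chromosome XI, had 101, 88.6 and 100.1 CPM in the deletion and 141, 85.2 and 94.7 CPM in the wild type. The spread between strains in glucose was large for this gene, and its change of -0.45 ± 0.17 passed at 15 min (edgeR adjusted p = 0.0213) but not at 60 min. With DESeq2 the changes of RSM22 and MRPL20 at 15 min did not pass the test, and that of MRP13 did. Without the 3 genes of that region, in the same fit, 43 genes rose and 2 fell of 59.

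At 60 min, 33 of the 62 genes were higher than in glucose, 1 was lower (MRP13) and 28 did not pass the test (edgeR, Benjamini-Hochberg adjusted p under 0.05), where 32.3% of all genes tested rose and 33.9% fell. DESeq2 called 19 up and 1 down. The median change was 0.35 log2 units, or 1.27-fold, against -0.02 over all genes tested. The comparisons at 15 and 60 min share the glucose libraries, so their calls are not independent of each other. The largest changes at 60 min were those of MRP20 (1.33 ± 0.13), MRPS12 (1.12 ± 0.16), RSM10 (1.09 ± 0.14), MRPL31 (1.00 ± 0.16) and MRPL39 (0.98 ± 0.13). MRPL17 and MRPS8 had the smallest range of the 62 genes over the 6 libraries, 0.15 and 0.18 log2 units. MRPL17, which encodes mL46, had 142, 147 and 153 CPM in the deletion and 154, 144 and 158 CPM in the wild type, and its levels in glucose and galactose overlapped.

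A direct comparison of 60 with 15 min called 3 genes higher and 4 lower of the 62 (edgeR, Benjamini-Hochberg adjusted p under 0.05), against 20.4% higher and 16.1% lower over all genes tested. The median difference was -0.08 log2 units, or 0.07 when libraries were scaled to their totals, which called 8 genes higher and 3 lower. No member differed 2-fold in the TMM fit. Of all 5186 genes tested, that fit called 548 at least 2-fold higher and 171 at least 2-fold lower. The genes that were lower at 60 min were RSM10 (-0.55 ± 0.13), RSM24 (-0.54 ± 0.13), MRPL38 (-0.52 ± 0.13) and MRPL19 (-0.52 ± 0.15). RSM24, which encodes mS35, had 143, 233 and 157 CPM in the deletion and 142, 243 and 169 CPM in the wild type, so that its level was high at 15 min alone. MRPL19, which encodes uL11m of the stalk base, showed the same course, with 113, 173 and 135 CPM in the deletion and 119.6, 175 and 109 CPM in the wild type.

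The genes that were higher at 60 than at 15 min were MRP13 (0.49 ± 0.15), MRPL39 (0.48 ± 0.13) and MRP2 (0.44 ± 0.14). MRPL39, which encodes the small protein bL33m, had 171, 228 and 305 CPM in the deletion and 162, 244 and 354 CPM in the wild type, and thus climbed at each time in each strain. MRP2, which encodes uS14m, had 123, 120.3 and 167 CPM in the deletion and 104, 114 and 151 CPM in the wild type, and only its libraries at 60 min stood above the rest. MRP13 at 60 min lay between its levels at 15 min and in glucose. With DESeq2 none of these 3 increases passed the test, and of the 4 decreases that of MRPL19 did not. By contrast, 94 of the 137 cytosolic ribosomal protein genes rose between 15 and 60 min and 1 fell, with a median of 0.94 log2 units.

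**Figure D3:**
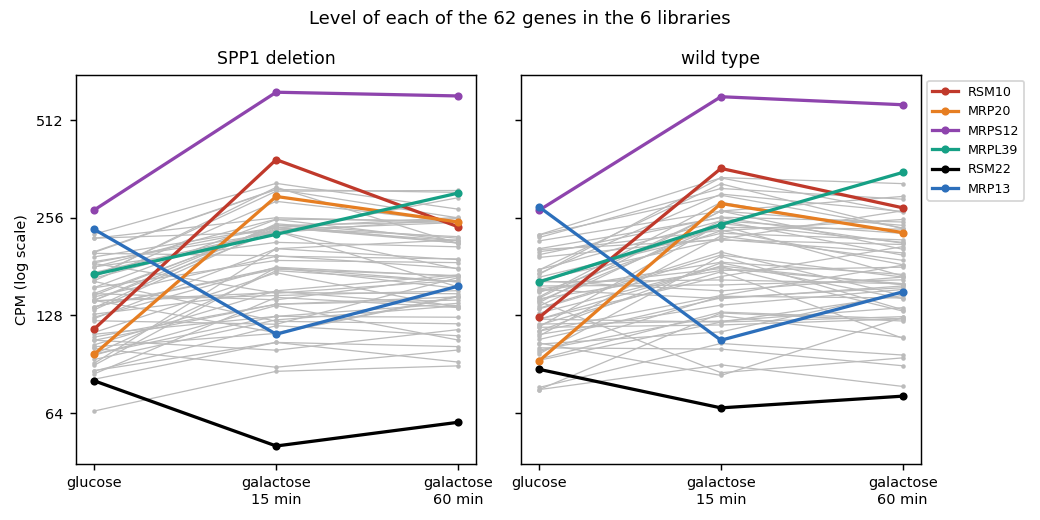
Level (CPM, log scale) of each of the 62 genes in glucose and at 15 and 60 min in galactose, in the SPP1 deletion (left) and the wild type (right), with 6 genes in colour. RSM10 peaks at 15 min (387 and 364 CPM), MRPL39 climbs to 60 min (305 and 354 CPM) and MRP13 is lowest at 15 min (112 and 107 CPM).

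In both subunits more genes rose than fell. Of the 35 large subunit genes, 26 rose and 1 fell at 15 min, with a median of 0.46 log2 units, and of the 27 small subunit genes 17 rose and 2 fell, with a median of 0.42. At 60 min the large subunit had 21 genes up and none down, and the small subunit 12 up and 1 down, with medians of 0.36 and 0.29. The small subunit held both extremes at 15 min, RSM10 and MRP13, and its changes were more spread (SD over genes 0.57 log2 units, against 0.36 in the large subunit). Of the 39 genes whose proteins have a bacterial counterpart, 30 rose and none fell at 15 min, with a median of 0.46. Of the 22 genes for proteins specific to mitochondria, 13 rose and 2 fell, with a median of 0.38, and RSM22 was put in neither class. At 60 min the counts were 23 up and none down of 39, and 10 up and 1 down of 22. Over all genes tested, 37.1% rose and 38.1% fell at 15 min, and 32.3% rose and 33.9% fell at 60 min. These classes were set from the uniform protein names, and differences between them were not tested.

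No difference between the SPP1 deletion and the wild type was detected for these genes. In the difference shared by the 3 conditions, 0 of the 62 genes passed the test (edgeR, Benjamini-Hochberg adjusted p under 0.05). Of all genes tested, 1.1% were higher in the deletion and 0.733% lower, so 0 of 62 is close to that background. No member had an unadjusted p under 0.05 in the main edgeR fit or by DESeq2, and 1 had by limma. With other edgeR settings up to 2 members had, the most when libraries were scaled to their totals. The median difference, deletion over wild type, was -0.01 log2 units, and the members ran from -0.25 ± 0.12 (MRPS28) to 0.16 ± 0.11 (MRP2). The 95% intervals of all 62 differences lay within 1 log2 unit of 0, their median half-width was 0.23, and their outermost bounds were -0.51 (RSM22) and 0.40 (MRP2). A difference of 2-fold shared by the conditions was therefore outside the interval for each gene, while differences smaller than the half-width could not be resolved.

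MRPS28, which encodes uS15m, had the largest fitted strain difference. It had 163, 123 and 121 CPM in the deletion in glucose and at 15 and 60 min, against 162, 165 and 160.4 CPM in the wild type. The strains were level in glucose, and the deletion was lower at both galactose times, by -0.42 log2 units at 15 min (exact 95% counting interval -0.72 to -0.13) and -0.41 at 60 min (-0.72 to -0.11). Its shared difference did not pass the test (edgeR adjusted p = 0.38). Intervals that left out 0 were not particular to MRPS28. Over the 62 genes, such intervals lay above 0 for 4 and below 0 for 7 in glucose. At 15 min 2 lay above and 5 below, and at 60 min 3 lay above and 4 below. These intervals cover counting error only. They were computed for the 62 genes alone, so the share over all genes tested is not known. The next differences below 0 were those of RSM22 (-0.23), MRPL15 (-0.19), MRPL9 (-0.18), MRPL32 and MRPL20 (both -0.17). Above 0, after MRP2, came RSM7 (0.15), MRPL49 (0.11) and MRP7 and MRP51 (both 0.10).

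**Figure D4:**
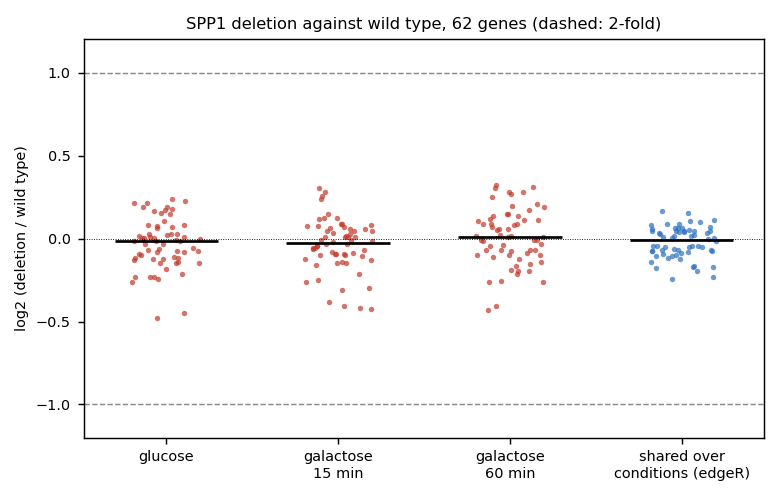
Log2 of the level in the SPP1 deletion over that in the wild type for the 62 genes (points) in each condition, with 1 library per strain, and for the difference shared by the conditions (edgeR); black bars are medians and dashed lines mark 2-fold. All points lie between -0.48 and 0.32, with medians near 0.

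Within single conditions there is 1 library per strain, so the values carry counting error only and no test. No member differed 2-fold between the strains in glucose, at 15 min or at 60 min, where 1.21%, 2.26% and 1.7% of all genes tested did. At shares this low, the absence of such members is close to the background. The medians were -0.02, -0.03 and 0.01 log2 units in that order. The lowest and highest values were -0.48 (MRPL20) and 0.24 (MRP2) in glucose, -0.42 (MRPL27) and 0.31 (RSM18) at 15 min, and -0.43 (MRPL32) and 0.32 (MRP21) at 60 min.

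The response to galactose also had nearly the same size in the strains. The members' median change at 15 min was 0.41 log2 units in the deletion and 0.44 in the wild type, and at 60 min it was 0.39 in the deletion and 0.33 in the wild type. No member's response differed 2-fold between the strains, where 2.49% of all genes tested did at 15 min and 2.41% at 60 min. At shares this low, the absence of such members is close to the background, and these differences had no test. The widest at 15 min was that of MRPL31, which encodes mL60: it had 91.2, 206 and 219 CPM in the deletion, against 125, 169 and 209 CPM in the wild type. Its response was larger in the deletion by 0.73 log2 units at 15 min and 0.52 at 60 min, and it was lower in the deletion in glucose. At 60 min the widest was that of MRPL20 (0.56), one of the uncertain genes of chromosome XI. MRPL25, which encodes mL59, was the opposite extreme at both times, with a response smaller in the deletion (-0.49 and -0.45). Across the 62 genes, the change in the deletion and in the wild type had a Spearman correlation of 0.79 at 15 min and 0.76 at 60 min; each strain's changes share its own glucose library.

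In glucose the median level over all genes tested was 112 CPM in the deletion and 111 CPM in the wild type. The 62 genes had medians of 142 CPM in the deletion and 141 CPM in the wild type. Per kilobase of annotated span, their medians were 214 CPM in the deletion and 223 CPM in the wild type, against 92.2 and 91.0 CPM per kb over all genes tested with a known span. The level at the 90th percentile was 4.24-fold that at the 10th in the deletion and 3.95-fold in the wild type, against 21.5-fold and 19.6-fold over all such genes. The highest levels per kb in glucose belonged to MRPL39, with 804 CPM per kb in the deletion and 763 in the wild type, followed by MRPL37, MRPS16, MRPS12 and MRP10. The lowest belonged to RSM22, with 42.6 CPM per kb in the deletion and 46.3 in the wild type, and then RSM28, MRPL7, MRPL4 and MRPL35. This order follows mainly the length of the genes: the Spearman correlation with span over the 62 genes was -0.04 for CPM and -0.79 for CPM per kb. The gene windows used for counting are not stated, so the order per kb is a description of the table. The same holds for the comparison per kb with all genes tested, which was not adjusted for span.

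Many of the genes have an upstream neighbour that is transcribed the other way. Whether such pairs share a promoter was not tested. For 37 of the 62 genes the upstream neighbour is divergent and starts within 1000 bp, and 35 of these neighbours were tested. In these 35 pairs, 25 mitochondrial ribosomal protein genes rose and 2 fell at 15 min (edgeR, Benjamini-Hochberg adjusted p under 0.05), whereas 11 neighbours rose, 15 fell and 9 did not pass. Over all genes tested 37.1% rose and 38.1% fell, so the neighbours' counts are close to that background. At least 2-fold changes were called for 17 neighbours, and 1 of the 35 members moved that far. Over all 5186 genes tested, 1075 were called at least 2-fold up and 1269 at least 2-fold down. The SD of the changes was 0.42 log2 units over the members and 2.34 over their neighbours, against 1.87 over all genes tested. In 10 pairs the member rose while its neighbour fell, in 8 both rose and in 2 both fell. The pairs in which both fell include MRPL20 and PRP16, which lie on the uncertain part of chromosome XI. PRP16 had only 41, 3 and 8 counts in the deletion and 19, 5 and 10 in the wild type.

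The pairs named next were chosen after their values were seen. MRPL16, which encodes the uL16m protein of the large subunit, starts 458 bp from URA7, a CTP synthase gene. URA7 fell by 5.83 log2 units at 15 min, with 3000, 14 and 23 counts in the deletion and 1374, 17 and 46 in the wild type. MRPL16 had 738, 340 and 254 counts in the deletion and 431, 280 and 340 in the wild type, which after scaling was an increase of 0.35 ± 0.13 log2 units (edgeR adjusted p = 0.0214). MRPS16, whose protein is bS16m, lies 372 bp from RRP12, a ribosome export factor gene that fell by 5.59 log2 units, and its own change of 0.19 ± 0.14 did not pass the test. On the other side, MRPL15 lies 646 bp from ATG39, a gene for an autophagy receptor of the nucleus that rose by 5.64 log2 units, while MRPL15 changed by 0.19 ± 0.13 and did not pass. MRP51 lies 363 bp from DBP1, a helicase gene that rose by 3.30, and itself rose by 0.89 ± 0.13. Over the 35 pairs the Spearman correlation of the changes was 0.31 at 15 min and 0.22 at 60 min, with each pair measured in the same libraries.

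**Figure D5:**
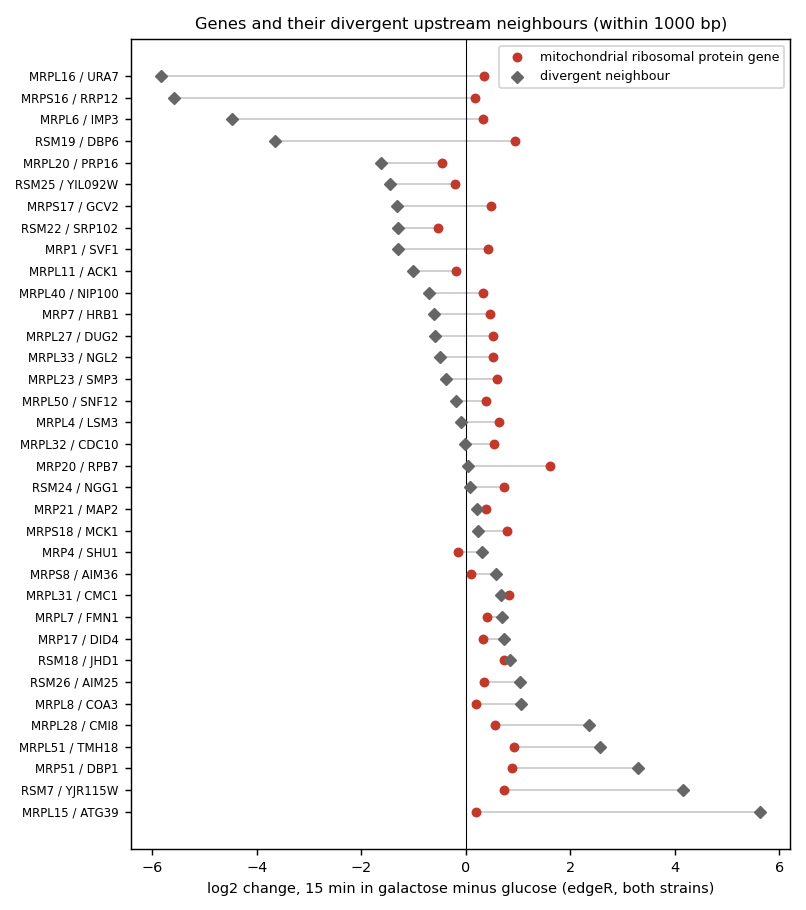
Log2 change at 15 min in galactose against glucose (both strains, edgeR) for 35 mitochondrial ribosomal protein genes (red circles) and for the divergent gene upstream of each (grey diamonds), one pair per row, ranked by the neighbour. The neighbours run from -5.83 (URA7) to 5.64 (ATG39), and the members stay between -0.53 and 1.61.

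MRP13, the one gene that fell at both times, has a tandem neighbour upstream, RPL11B, a cytosolic ribosomal protein gene that ends 240 bp before it. RPL11B had 1718, 110 and 160 counts in the deletion and 1130, 106 and 275 in the wild type, a change of -2.47 log2 units at 15 min. RSM27, whose protein is mS33, likewise follows a cytosolic ribosomal protein gene, RPS0A, at 386 bp, and RPS0A fell by 2.78 log2 units. RSM27 had 149.5, 143 and 169 CPM in the deletion and 164, 152 and 168 CPM in the wild type, with a change of -0.08 ± 0.13 that did not pass the test. Whether a neighbour contributes to the counts of MRP13 was not tested.

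Other parts of mitochondrial gene expression were followed in the same fit, in which 37.1% of all genes tested rose and 38.1% fell at 15 min, and 32.3% rose and 33.9% fell at 60 min. Among genes of mitochondrial ribosomal proteins with names of another form, 14 were tested, of which 7 rose and none fell at 15 min and 9 rose and none fell at 60 min, with medians of 0.29 and 0.46 log2 units. The largest changes at 15 min were those of SWS2 (1.10) and PET123 (1.02), genes of small subunit proteins. EHD3, another of the 14, was higher in the deletion by 0.51 log2 units (edgeR adjusted p = 0.0494), just inside the threshold. Of 9 genes for translation factors of the organelle, 8 rose and none fell at each time, with medians of 1.23 and 0.91, and MRF1, the release factor gene, did not pass. The largest change among them was that of MEF2 (3.31 log2 units at 15 min), whose product acts in ribosome recycling, followed by the initiation factor gene AIM23 (1.86) and the elongation factor gene TUF1 (1.77).

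Of 6 genes for assembly and RNA modification of the mitochondrial ribosome, MTG1, a GTPase gene, rose at 15 min (0.84), and GEP3 (-1.79), MRM1 (-1.11) and MRH4 (-0.68) fell, against 37.1% up and 38.1% down over all genes tested. Differences between these lists were not tested. Of 22 genes for translational activators and related factors, some of which act on single mitochondrial messages, 11 rose and 3 fell at 15 min. CBP6 (1.53), PET494 (1.47) and MSS51 (1.40) had the largest changes, and CBP1 (-0.79), PET309 (-0.73) and MDM38 (-0.42) fell. RPO41, the gene of the mitochondrial RNA polymerase, rose by 1.28 log2 units and ABF2, which encodes the DNA packaging protein of the organelle, by 0.55, while MTF1, the gene of the transcription factor, did not pass. PUF3, whose product binds messages of many mitochondrial ribosomal proteins, rose by 0.63 log2 units at 15 min and 0.70 at 60 min (edgeR adjusted p = 0.000831 and 0.000373).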

How the data were processed

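The authors deposited 1 table of whole-number read counts per gene for 6 NET-seq libraries. The submitters' processing notes name Bowtie and sacCer3, with no version. The counting tool, strand setting, counting windows and treatment of shared reads are not stated there or in the labels. Of 5219 identifiers, 5116 were matched to a RefSeq table of the R64 assembly for names and positions, and 3 emptied lines were skipped. Counts were tested with edgeR 4.0.16 in R 4.3.3 (quasi-likelihood, TMM factors 0.940 to 1.06, mean count of at least 10, condition and strain as additive terms, 2 residual degrees of freedom) with Benjamini-Hochberg adjustment over 5186 genes at 0.05. The spread of each gene was shrunk towards that of all genes, with 13.0 prior degrees of freedom. The SE given is the log2 change divided by the square root of F, an approximation. The 95% intervals of the fitted strain differences used the prior and residual degrees of freedom together. Pairs of libraries were compared as log2 CPM with a prior count of 2 and exact 95% binomial intervals, which cover counting error only. The fit was tested on simulated data. Alternatives were DESeq2 1.42.0, limma 3.58.1, other scalings, filters, thresholds, thinning and fits without 1 condition. Named genes were the extremes of each comparison and of glucose level, plus genes called against the majority. Gene pairs described by neighbourhood were picked with their values in view. The members, lists and tests were chosen with earlier results of these data known. GAL10 is not reported here. Figures used matplotlib 3.10.9 in Python 3.11.15.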

Additional observations from a re-analysis of the deposited data

How the results depend on the processing

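Without replicates, the tests rest on the spread of the 6 libraries about the shared effects of strain and condition. They have 2 residual degrees of freedom, and 13.0 prior degrees of freedom come from the spread over all genes. No call changed its direction under an alternative setting. DESeq2 called fewer of the 62 genes: 30 at 15 min, 20 at 60 min and 3 at 60 against 15 min, against 46, 34 and 7 with edgeR. For 60 against 15 min, a threshold of 0.01 left 3 calls and 0.10 gave 13. Scaling to library totals gave 11 calls in that comparison, 8 higher and 3 lower, and moved the median of all genes by 0.15 log2 units. The median of the 62 genes there ran from -0.09 to 0.07 over the settings, and relative to the median of all genes from -0.08 to -0.06. Upper-quartile scaling moved the median of all genes at 15 min to -0.14 and gave 32 genes up and 5 down. Over all settings at 15 min the 62 genes stood 0.41 to 0.48 log2 units above the median of all genes, and at 60 min 0.35 to 0.39. Leaving out the condition not compared gave 46 calls at 15 min, 37 at 60 min and 7 at 60 against 15 min. The strain difference gave 0 calls under each of 15 alternatives. Counting only pairs of strains in 1 condition and pairs of conditions in 1 strain, 9 genes passed 2-fold in at least 1 pair, and 6 to 12 did under other settings. The share over all genes tested is not given for this count. In the fit at 15 min, 1075 of all 5186 genes tested were called at least 2-fold up and 1269 at least 2-fold down. The fitted interval of a single gene's strain difference had a median half-width of 0.23 log2 units, which sets the size of difference that could be seen. The fit itself compares times within each strain and strains within each condition, and the labels give no replicate numbers for a further block.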
